A study of Mus musculus with 8 samples.

Results

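The urea cycle and amino acid catabolism were described across 45 genes of enzymes that break down amino acids or dispose of their nitrogen in the liver. The genes were taken by symbol from a table of 13703 rows, all 45 were present, and they fell into 6 genes of the urea cycle, 10 of aromatic, 6 of branched-chain and 11 of one-carbon and sulfur amino acid metabolism, and 12 of other amino acids. Expression was given as FPKM, fragments scaled by gene length and by library total, and was treated as bulk RNA sequencing. The extraction protocol and the single column per library are those of bulk data, although the sample descriptions also name 10x Genomics, a maker of single-cell kits. The groups were 4 liver libraries of Alb-Cre Bicd2fl/fl mice and 4 of Alb-WT Bicd2fl/fl mice, so both carried the floxed alleles of Bicd2, an adaptor between the dynein motor and its cargo. The albumin promoter that drives Cre is active in hepatocytes. All mice had been given S-100, a liver antigen preparation in complete Freund's adjuvant that induces an autoimmune hepatitis (AIH) model, in weekly injections of 2.5 mg over 3 weeks, and their livers were collected 2 weeks after the last one. Untreated liver was not analysed here.

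As background, hepatocytes strip amino groups from amino acids by transamination and deamination, and the urea cycle turns the ammonia into urea. The carbon skeletons are oxidised or used for glucose synthesis. Methionine and glycine breakdown are tied to the folate and betaine pathways that supply methyl groups. Many of these enzymes are more abundant in periportal than in pericentral hepatocytes.

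Bicd2 was measured at 0.705, 0.568, 0.509 and 0.732 FPKM in Alb-Cre replicates 1 to 4, against 2.46, 3.02, 2.80 and 3.11 FPKM in Alb-WT replicates 1 to 4. Every Alb-Cre library was below every Alb-WT library (limma log2 fold change -1.24, SE 0.082, adjusted p = 7.25e-05). Totals behind the FPKM values ranged from 32793770 to 39157210 fragments per library. Alb-Cre replicate 4 stood apart from its group. Its log2 values correlated at 0.958 to 0.960 with Alb-Cre replicates 1 to 3 and at 0.974 to 0.977 with the Alb-WT libraries, while pairs within Alb-Cre replicates 1 to 3 and within Alb-WT reached 0.995 to 0.996. The labels do not say whether the libraries came from separate animals, so p-values reflect how far these libraries spread, and that spread may be technical.

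The 9 measured hepatocyte markers summed to 35349 to 45337 FPKM in Alb-Cre and to 41467 to 42272 FPKM in Alb-WT libraries, so the livers carried the hepatocyte signature. Markers of several other cell types were lower in Alb-Cre replicates 1 to 3, and replicate 4 of that group often differed from them. All 10 Kupffer cell markers were called lower, with sums of 266 to 276 FPKM in Alb-Cre replicates 1 to 3 and 780 FPKM in replicate 4 of that group, against 809 to 860 FPKM across Alb-WT. All 6 measured neutrophil markers were called lower. Their sums were 7.36 to 7.70 FPKM in Alb-Cre replicates 1 to 3 and 90.1 FPKM in replicate 4. In Alb-WT they were 267 to 329 FPKM. Of 8 monocyte and infiltrating macrophage markers 5 were called lower, with sums of 96.8 to 106 FPKM in Alb-Cre replicates 1 to 3 and 460 FPKM in replicate 4, against 453 to 479 FPKM in Alb-WT. All 4 tested cholangiocyte markers were called lower. Over the 5 measured ones, sums were 36.2 to 41.0 FPKM in Alb-Cre replicates 1 to 3 and 61.8 FPKM in replicate 4. In Alb-WT they were 79.0 to 92.2 FPKM, and Spp1 made up most of each sum. Most markers of the other lists did not pass. Of 5 tested lymphocyte markers 1 was called lower. Over the 8 measured ones, sums were 2.19 to 2.25 FPKM in Alb-Cre replicates 1 to 3 and 16.2 FPKM in replicate 4. In Alb-WT they were 10.8 to 11.8 FPKM. Of 6 sinusoidal endothelial markers 2 were called lower. Their sums were 37.0 to 39.5 FPKM in Alb-Cre replicates 1 to 3 and 29.5 FPKM in replicate 4. In Alb-WT they were 36.8 to 39.1 FPKM. Of 7 stellate and fibroblast markers 1 was called higher and 2 lower. Their sums were 12.6 to 14.2 FPKM in Alb-Cre replicates 1 to 3 and 24.3 FPKM in replicate 4. In Alb-WT they were 21.2 to 23.3 FPKM. In bulk tissue, fewer cells of a type and less RNA per cell cannot be told apart. The part of these shifts in the results on amino acid genes was not tested.

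Genes of amino acid catabolism changed in both directions in Alb-Cre livers. Of the 45 genes 7 were higher, 12 were lower and 26 did not pass the test (limma on log2(FPKM + 1), adjusted p under 0.05 over 11077 genes). The higher genes were Kmo, Bhmt, Dmgdh, Aass, Got2, Mccc2 and Aldh4a1, and the lower ones Kynu, Asl, Cth, Hpd, Mat1a, Tat, Ahcy, Gnmt, Cbs, Sds, Uroc1 and Ivd. The changes were modest, the largest being 0.64 on the log2 scale. Over all tested genes 8.48% were called higher and 23.3% lower, and the members' shares were 15.6% and 26.7%. Since 44 of the 45 members averaged at least 5 FPKM, the nearer background is the 4754 genes at that level, of which 16.4% were called higher and 20.6% lower. The members' counts lie near these shares and are no result about the set. Counts below for a pathway or a further list stand beside these shares and were not tested as sets. The members' median log2 fold change was -0.04, against -0.13 over all tested genes. Among genes of at least 5 FPKM the order turned, with -0.05 for the members against -0.04 for all.

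The groups did not overlap for 24 members, 9 with every Alb-Cre library above every Alb-WT library and 15 below, where 9.27% and 21.4% of all tested genes were separated in these directions. Shares of separated genes at 5 FPKM or more were not taken, so these counts are no result about the set. Of the 19 called members 18 were among the 24, the exception being Mat1a. Summed over all 45 genes, expression was 8565 to 9762 FPKM in Alb-Cre and 10440 to 10860 FPKM in Alb-WT libraries, without overlap. The abundant lower genes Tat and Hpd contributed to that gap in every Alb-Cre library, and Mat1a in Alb-Cre replicates 1 to 3. In Alb-Cre replicate 4, Ass1, which was not called, was 897 FPKM, against 1230 to 1298 FPKM in Alb-WT.

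**Figure D1:**
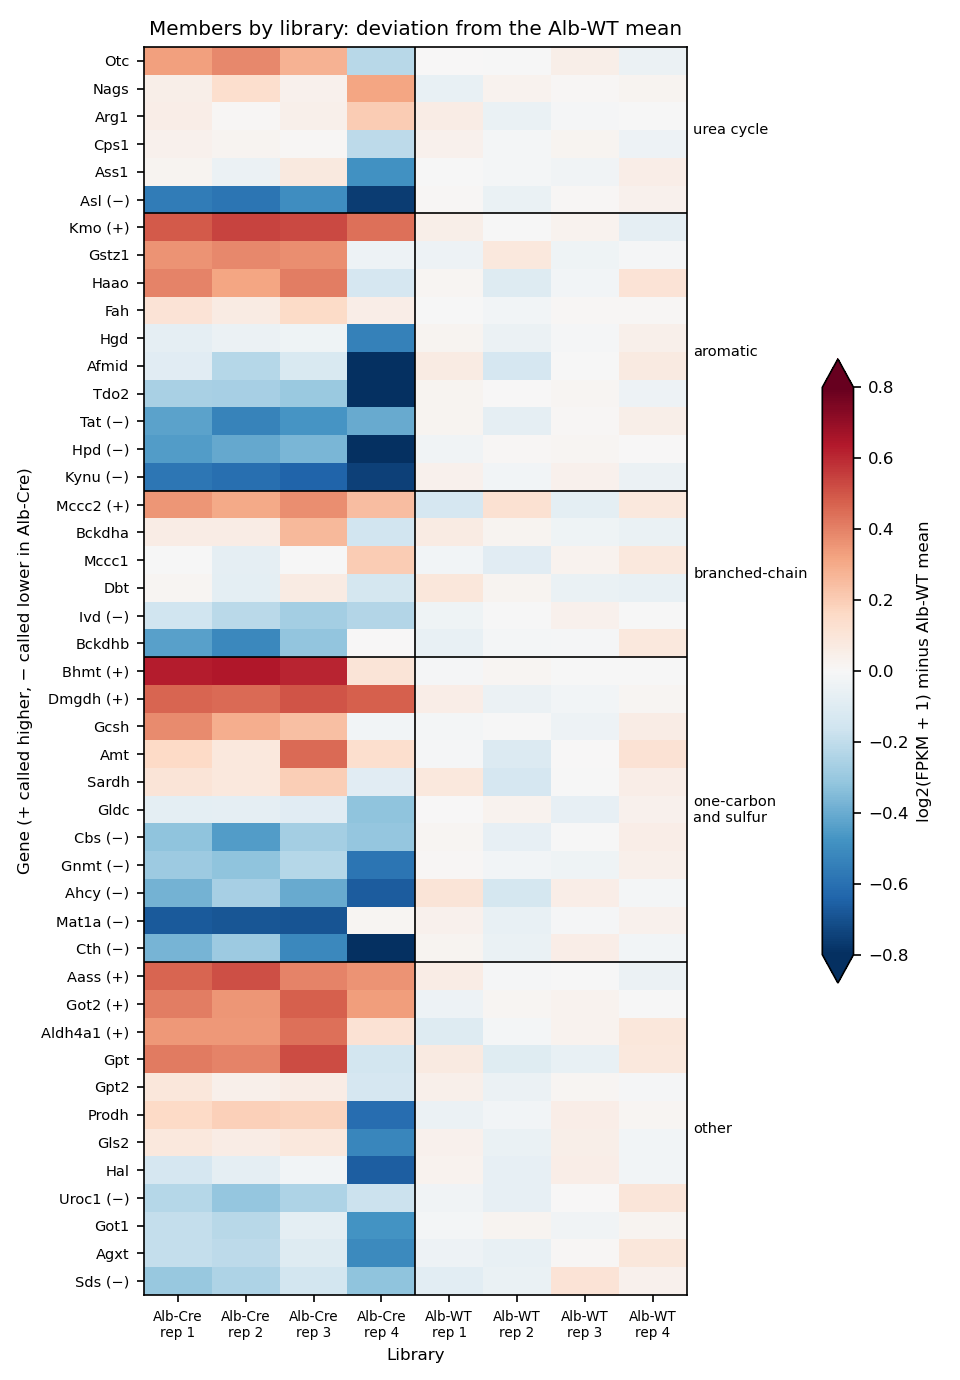
Each row is a gene and each column a library, coloured by log2(FPKM + 1) minus the gene's Alb-WT mean, with colours saturating at -0.8 and 0.8; plus and minus signs mark genes called higher and lower in Alb-Cre. Rows of both colours stand side by side within each pathway, and Alb-Cre replicate 4 is paler or bluer than replicates 1 to 3 in many rows.

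In the urea cycle only Asl, which splits argininosuccinate into arginine and fumarate, passed the test. Asl had 90.7, 89.2, 94.7 and 79.0 FPKM in Alb-Cre, against 135, 129, 135 and 138 FPKM in Alb-WT. The groups were far apart, with means of 88.4 ± 6.69 FPKM in Alb-Cre and 134 ± 3.42 FPKM in Alb-WT (SD, n = 4 each). Asl fell by 0.60 on the log2 scale (SE 0.07, limma adjusted p = 0.000912). Ass1, which makes argininosuccinate and was the most abundant gene of the cycle, had 1272, 1215, 1326 and 897 FPKM in Alb-Cre, against 1249, 1238, 1230 and 1298 FPKM in Alb-WT. Alb-Cre replicates 1 to 3 covered the Alb-WT range and replicate 4 was lowest (log2 fold change -0.11, limma adjusted p = 0.532).

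The other 4 genes of the cycle did not pass. Cps1, which fixes ammonia as carbamoyl phosphate, averaged 546 FPKM in Alb-Cre and 559 FPKM in Alb-WT, with a log2 fold change of -0.04. Arg1, which releases urea, had a log2 fold change of 0.07, and Nags, which makes the activator of Cps1, had 0.13 with every Alb-Cre library at or above 21.3 FPKM and every Alb-WT library at or below 21.2 FPKM. Otc, which forms citrulline, had 124, 129, 120 and 84.4 FPKM in Alb-Cre, against 98.9, 98.3, 102 and 95.6 FPKM in Alb-WT. Its log2 fold change was 0.19 with all libraries (limma adjusted p = 0.262) and 0.33 without Alb-Cre replicate 4 (adjusted p = 0.000114). The ratio of Asl to Ass1 within a library was 0.071 to 0.088 in Alb-Cre, against 0.105 to 0.110 in Alb-WT.

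Of 11 further genes of ammonia handling and the urea cycle 2 were called higher and 3 lower. Car5a, the mitochondrial carbonic anhydrase that supplies bicarbonate to Cps1, rose by 0.41, and Sirt5, a mitochondrial deacylase that acts on Cps1, rose by 0.33 (limma log2 fold changes, adjusted p = 0.0082 and 0.00936). Sirt3, a mitochondrial deacetylase, fell by 0.25, and Oat, ornithine aminotransferase, fell by 0.56 (limma log2 fold changes, adjusted p = 0.0274 and 0.0424). Oat was 182 to 186 FPKM in Alb-Cre replicates 1 to 3 and 327 FPKM in replicate 4, against 308 to 320 FPKM in Alb-WT. Of 15 amino acid transporters 9 were called lower and the other 6 did not pass, where 23.3% of all tested genes were called lower. Slc7a2, a carrier of arginine, lysine and ornithine, averaged 50.9 ± 1.51 FPKM in Alb-Cre and 89.4 ± 5.03 FPKM in Alb-WT (SD, n = 4 each; log2 fold change -0.80, limma adjusted p = 0.000148). Slc1a2, a glutamate transporter of pericentral hepatocytes, averaged 7.36 ± 1.07 FPKM in Alb-Cre and 16.2 ± 0.576 FPKM in Alb-WT (SD, n = 4 each; log2 fold change -1.05, limma adjusted p = 0.00023). Slc25a22, a mitochondrial glutamate carrier, fell by 0.68 on the log2 scale (limma adjusted p = 0.000265).

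Among aromatic amino acid genes the early steps of tyrosine breakdown were lower and the tryptophan route changed in both directions at successive enzymes. Tat, tyrosine aminotransferase, had 975, 906, 946 and 995 FPKM in Alb-Cre, against 1333, 1251, 1321 and 1355 FPKM in Alb-WT. All 4 Alb-Cre libraries were lower (log2 fold change -0.46, SE 0.075, limma adjusted p = 0.00399). Hpd, the dioxygenase of the next step, had 548, 564, 580 and 370 FPKM in Alb-Cre, against 735, 753, 755 and 751 FPKM in Alb-WT. It too was lower throughout, with Alb-Cre replicate 4 lowest (log2 fold change -0.56, SE 0.14, limma adjusted p = 0.0193). Without that library its log2 fold change was -0.41 and it was still called, whereas leaving out Alb-WT replicate 1, 2 or 3 ended the call (adjusted p = 0.0518, 0.0503 and 0.0552).

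The later enzymes of tyrosine breakdown did not pass. Hgd, which opens the ring of homogentisate, had a log2 fold change of -0.17, Gstz1, the maleylacetoacetate isomerase, 0.27, and Fah, the last enzyme, 0.10. Gstz1 and Fah were called higher without Alb-Cre replicate 4, at 0.37 and 0.11 on the log2 scale (limma adjusted p = 5.23e-05 and 0.0332).

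Kmo hydroxylates kynurenine, and Kynu, kynureninase, cleaves both kynurenine and the hydroxylated product. Kynu had 31.6, 31.1, 30.3 and 28.0 FPKM in Alb-Cre, against 48.9, 47.1, 48.9 and 46.2 FPKM in Alb-WT. Kmo had 72.0, 74.8, 74.0 and 69.8 FPKM in Alb-Cre, against 52.8, 50.9, 52.1 and 48.5 FPKM in Alb-WT. Neither gene's groups overlapped, and Alb-Cre replicate 4 stayed close to its group in both. Kynu fell by 0.64 (SE 0.06, adjusted p = 0.000313) and Kmo rose by 0.50 (SE 0.058, adjusted p = 0.000806) on the limma log2 scale. The ratio of Kmo to Kynu was 2.28 to 2.49 in Alb-Cre, against 1.05 to 1.08 in Alb-WT libraries. Macrophages also express Kynu and Kmo, and the macrophage marker sums above differed between the groups, with Alb-Cre replicate 4 at 780 FPKM for Kupffer cells.

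Tdo2, which opens the tryptophan ring, had 270 FPKM in Alb-Cre replicate 4, 441 to 451 FPKM in Alb-Cre replicates 1 to 3 and 526 to 548 FPKM in Alb-WT. Every Alb-Cre library was lower, and the gene did not pass with all libraries (log2 fold change -0.46, limma adjusted p = 0.0578) but did without Alb-Cre replicate 4 (-0.27, adjusted p = 0.000125). Afmid, the formamidase after Tdo2, had a log2 fold change of -0.38 and Haao, which acts after Kynu, 0.25, and neither passed. Haao was called higher without Alb-Cre replicate 4 (0.37, adjusted p = 0.000223). Of 12 further aromatic amino acid genes 4 were called higher and 1 lower. Qprt, which carries the pathway on towards NAD, rose by 0.41, Ido2, another tryptophan dioxygenase, rose by 0.39, and Pcbd1, which recycles the tetrahydrobiopterin cofactor, rose by 0.45 (limma log2 fold changes, adjusted p = 0.0095, 0.0235 and 0.0364). Gch1, the first enzyme of tetrahydrobiopterin synthesis, fell by 0.17 (limma adjusted p = 0.0425), with a log2 fold change of 0.01 under median-of-ratios scaling and under a correction for gene length.

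**Figure D2:**
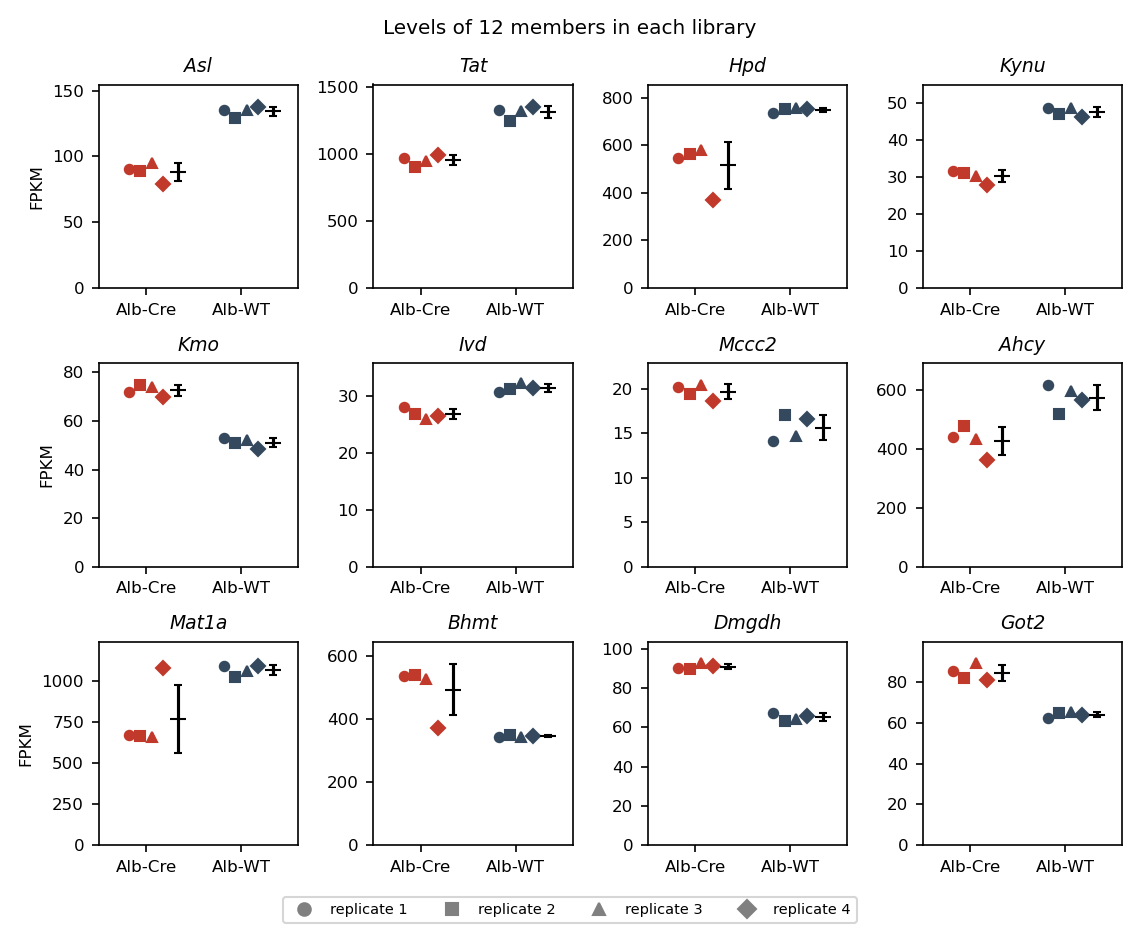
FPKM of 12 genes in each library, Alb-Cre left and Alb-WT right, with the mean and SD of 4 libraries beside the points and every axis starting at 0. Asl, Kynu and Tat lie lower and Kmo, Dmgdh and Got2 higher in all 4 Alb-Cre libraries, whereas Alb-Cre replicate 4 sits at the Alb-WT level for Mat1a and near it for Bhmt.

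In branched-chain amino acid breakdown, which in liver follows transamination in other tissues, 1 of 6 genes rose and 1 fell. Of all genes at 5 FPKM or more, 16.4% were called higher and 20.6% lower. Mccc2, the smaller subunit of methylcrotonyl-CoA carboxylase in leucine breakdown, had 20.2, 19.5, 20.5 and 18.7 FPKM in Alb-Cre, against 14.1, 17.0, 14.7 and 16.6 FPKM in Alb-WT. Every Alb-Cre library was higher (log2 fold change 0.32, SE 0.075, limma adjusted p = 0.0155), and without Alb-WT replicate 3 the gene missed the threshold (0.29, adjusted p = 0.0513). Ivd, isovaleryl-CoA dehydrogenase, the step just before, had 28.1, 26.9, 25.9 and 26.6 FPKM in Alb-Cre, against 30.7, 31.3, 32.3 and 31.4 FPKM in Alb-WT. The difference was small but the groups did not overlap (log2 fold change -0.22, SE 0.054, limma adjusted p = 0.0187). The call of Ivd ended without Alb-Cre replicate 3 or Alb-WT replicate 2 or 3 (adjusted p = 0.0578, 0.0504 and 0.0605). Mccc1, the partner subunit of Mccc2, had a log2 fold change of 0.03.

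Bckdhb, a subunit of the dehydrogenase complex that commits the keto acids to oxidation, had 24.4, 23.0, 26.6 and 33.4 FPKM in Alb-Cre, against 32.0, 33.0, 33.1 and 35.4 FPKM in Alb-WT. Alb-Cre replicates 1 to 3 were lower and replicate 4 lay among the Alb-WT libraries (log2 fold change -0.32, limma adjusted p = 0.0533; without that library -0.42, adjusted p = 0.000148). The other subunits Bckdha and Dbt had log2 fold changes of 0.06 and -0.03 and did not pass. Of 21 further genes of the route 6 were called higher and 1 lower. Pcca, a propionyl-CoA carboxylase subunit, rose by 0.29, Slc25a44, the mitochondrial carrier of branched-chain amino acids, rose by 0.43, and Hibch, of valine breakdown, rose by 0.32 (limma log2 fold changes, adjusted p = 0.0133, 0.0166 and 0.0227). Ppm1k, the phosphatase that activates the dehydrogenase complex, averaged 13.6 ± 1.83 FPKM in Alb-Cre and 22.6 ± 1.11 FPKM in Alb-WT (SD, n = 4 each; log2 fold change -0.70, limma adjusted p = 0.00172).

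In one-carbon and sulfur amino acid metabolism the genes from methionine to cysteine were lower and those of betaine and dimethylglycine use were higher. Of 11 genes 5 fell, namely Mat1a, Gnmt, Ahcy, Cbs and Cth, 2 rose, namely Bhmt and Dmgdh, and 4 did not pass. Over all tested genes 8.48% were called higher and 23.3% lower, and 16.4% and 20.6% of those at 5 FPKM or more. None of the 5 was called lower under median-of-ratios scaling, and the groups of Mat1a overlapped. These 5 lower genes encode successive steps: synthesis of S-adenosylmethionine, its use on glycine, hydrolysis of S-adenosylhomocysteine, and the pair of steps that turn homocysteine into cysteine. Bhmt takes homocysteine the other way, back to methionine, with a methyl group of betaine, and Dmgdh oxidises the dimethylglycine that is left.

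Dmgdh had 90.3, 89.7, 92.7 and 91.0 FPKM in Alb-Cre, against 67.5, 63.0, 64.2 and 65.9 FPKM in Alb-WT. The Alb-Cre libraries, replicate 4 included, lay close together and above Alb-WT (log2 fold change 0.48, SE 0.054, limma adjusted p = 0.000768). Bhmt had 535, 539, 528 and 371 FPKM in Alb-Cre, against 343, 350, 345 and 345 FPKM in Alb-WT. Replicate 4 was the nearest of its group to Alb-WT, though still above it (log2 fold change 0.49, SE 0.12, limma adjusted p = 0.0191). Without it the log2 fold change of Bhmt was 0.63, and leaving out any other Alb-Cre library, or Alb-WT replicate 1 or 3, ended the call (adjusted p = 0.0515 to 0.0577).

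Bhmt, Bhmt2 and Dmgdh are successive protein-coding genes on chromosome 13. Bhmt2, a homocysteine methyltransferase that uses S-methylmethionine, is not among the 45 genes. It had 93.1, 91.8, 95.7 and 80.2 FPKM in Alb-Cre, against 69.1, 68.8, 69.2 and 71.9 FPKM in Alb-WT, and was called higher (log2 fold change 0.36, limma adjusted p = 0.0075). Bhmt and Bhmt2 are close paralogs, so their fragments may be divided uncertainly by the counting. The ratio of Dmgdh to Bhmt was 0.245 in Alb-Cre replicate 4, against 0.166 to 0.176 in Alb-Cre replicates 1 to 3. Because these 3 neighbours were each called higher, the sequences at their starts are shown, from RefSeq on GRCm38.p6. Bhmt2 and Dmgdh start in opposite directions, and the whole stretch between their starts, chr13:93674303-93674435 on the plus strand, is given with its match to GGGCGG, the GC box, on the other strand in capitals. The 250 bases before the start of Bhmt, chr13:93637759-93638008 on the minus strand, are given with AGGTCA, the element bound by many nuclear receptors, in capitals.
Bhmt2-Dmgdh: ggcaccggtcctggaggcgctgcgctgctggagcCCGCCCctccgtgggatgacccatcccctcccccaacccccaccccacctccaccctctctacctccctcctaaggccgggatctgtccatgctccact
Bhmt: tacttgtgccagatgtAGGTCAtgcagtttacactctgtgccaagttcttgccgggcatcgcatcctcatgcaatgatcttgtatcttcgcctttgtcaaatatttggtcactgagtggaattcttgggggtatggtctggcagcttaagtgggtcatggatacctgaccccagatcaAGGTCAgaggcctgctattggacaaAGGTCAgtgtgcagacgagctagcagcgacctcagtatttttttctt

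The Bhmt stretch held AGGTCA 3 times, and the stretch between Bhmt2 and Dmgdh did not hold it on either strand. Searched on both strands, 3 or more matches were in 0.122% and at least 1 match in 13.8% of 27025 RefSeq promoters of 250 bases. The GC box was in 27.9% of all promoters over the 133 bases next to the start. A promoter was at hand for 35 of the 45 members, and 14 of them (40.0%) held AGGTCA. The CCAAT box was in 20 of the 35 (57.1%), against 34.5% of all promoters. Among members with a promoter the CCAAT box was in 4 of 7 called higher and in 6 of 7 called lower. AGGTCA was in 3 of 7 called higher and in 3 of 7 called lower. For GGGCGG these counts were 1 of 7 and 3 of 7. GGGCGG was in 15 of the 35 against 32.9% of all, and TATAAA, the TATA box, in 4 of the 35 against 13.0% of all. The 27025 promoters were not restricted to genes expressed in liver, so these shares are no result about the members. A match describes the letters and does not show a binding site.

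Among the lower genes, Cbs, the first step from homocysteine to cysteine, had 71.0, 65.1, 73.8 and 71.8 FPKM in Alb-Cre, against 90.1, 85.2, 88.9 and 92.7 FPKM in Alb-WT. Every Alb-Cre library was lower (log2 fold change -0.34, SE 0.063, limma adjusted p = 0.00692). Ahcy had 439, 476, 432 and 361 FPKM in Alb-Cre, against 614, 519, 595 and 565 FPKM in Alb-WT. It was lower in all 4 Alb-Cre libraries (log2 fold change -0.43, SE 0.1, limma adjusted p = 0.0163) and missed the threshold without Alb-WT replicate 1 or 3 (adjusted p = 0.0538 and 0.0528). Mat1a, the most abundant of the 11, had 671, 663, 661 and 1079 FPKM in Alb-Cre, against 1095, 1027, 1061 and 1094 FPKM in Alb-WT. Replicate 4 was at the Alb-WT level while replicates 1 to 3 lay close together and far below it. The log2 fold change of Mat1a was -0.51 with all libraries (SE 0.16, limma adjusted p = 0.039) and -0.68 without Alb-Cre replicate 4, and leaving out any other library ended the call (adjusted p = 0.0743 to 0.105).

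Gnmt, glycine N-methyltransferase, averaged 672 ± 70.0 FPKM in Alb-Cre and 858 ± 20.1 FPKM in Alb-WT, and Cth, which releases cysteine, 154 ± 39.7 FPKM in Alb-Cre and 227 ± 7.19 FPKM in Alb-WT (SD, n = 4 each). Gnmt fell by 0.36 and Cth fell by 0.60 on the log2 scale (limma adjusted p = 0.0211 and 0.0368). Gnmt missed the threshold without any single Alb-WT library (adjusted p = 0.0517 to 0.061), and Cth without any single Alb-WT library or Alb-Cre replicate 1 or 3 (adjusted p = 0.0535 to 0.0898). In Alb-Cre replicate 4 Cth was 97.1 FPKM, below the 159 to 185 FPKM of Alb-Cre replicates 1 to 3, and without it the log2 fold change of Cth was -0.39 (limma adjusted p = 0.000165). Gldc, Amt and Gcsh, of the glycine cleavage system, and Sardh, which follows Dmgdh, had log2 fold changes of -0.14, 0.21, 0.22 and 0.07 and did not pass. Amt and Gcsh were called higher without Alb-Cre replicate 4, at 0.23 and 0.30 (limma adjusted p = 0.0397 and 0.000416).

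Of 31 further one-carbon and sulfur genes 8 were called higher and 4 lower. Sqor, which oxidises sulfide, rose by 0.44, and Aldh1l1, which oxidises formyl-tetrahydrofolate, rose by 0.38 (limma log2 fold changes, adjusted p = 0.002 and 0.0056). Chdh, which makes the precursor of betaine, fell by 0.29, and Cdo1, which oxidises cysteine, fell by 0.51 (limma adjusted p = 0.00695 and 0.0164).

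Among the 12 genes of other amino acids Aass, Got2 and Aldh4a1 were higher, Uroc1 and Sds were lower, and 7 did not pass. Of all genes at 5 FPKM or more, 16.4% were called higher and 20.6% lower. Aass, the first enzyme of lysine breakdown, had 105, 108, 99.6 and 97.0 FPKM in Alb-Cre, against 78.6, 74.8, 75.2 and 72.8 FPKM in Alb-WT. Got2, the mitochondrial aspartate aminotransferase, had 85.3, 82.1, 89.4 and 81.2 FPKM in Alb-Cre, against 62.3, 64.8, 65.3 and 63.8 FPKM in Alb-WT. Both were higher in every Alb-Cre library, by 0.43 (SE 0.061, adjusted p = 0.00216) and 0.39 (SE 0.058, adjusted p = 0.00256) on the limma log2 scale. Got1, the cytosolic form and the most abundant of the 12 genes, had 135, 132, 146 and 110 FPKM in Alb-Cre, against 152, 157, 151 and 157 FPKM in Alb-WT. It was lower in every Alb-Cre library without passing the test (log2 fold change -0.24, limma adjusted p = 0.0626; without Alb-Cre replicate 4 -0.16, adjusted p = 0.0111). The ratio of Got2 to Got1 was 0.612 to 0.736 in Alb-Cre, against 0.407 to 0.431 in Alb-WT.

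Aldh4a1, the second step of proline breakdown, had 36.5, 36.4, 38.9 and 30.9 FPKM in Alb-Cre, against 26.4, 28.1, 29.0 and 30.3 FPKM in Alb-WT. Alb-Cre replicate 4 lay just above the highest Alb-WT library (log2 fold change 0.31, SE 0.082, limma adjusted p = 0.0224). Uroc1, urocanate hydratase of histidine breakdown, had 85.8, 81.1, 84.6 and 89.4 FPKM in Alb-Cre, against 98.6, 96.1, 101 and 108 FPKM in Alb-WT (log2 fold change -0.24, SE 0.063, limma adjusted p = 0.0232). Sds, serine dehydratase, averaged 87.4 ± 5.01 FPKM in Alb-Cre and 105 ± 6.45 FPKM in Alb-WT (SD, n = 4 each; log2 fold change -0.26, limma adjusted p = 0.0271). These 3 calls depended on single libraries. Aldh4a1 lost its call when any 1 of Alb-Cre replicates 1 to 3 or of Alb-WT replicates 1 to 3 was left out (adjusted p = 0.0553 to 0.0675). Uroc1 lost it when any 1 of Alb-Cre replicates 1 to 3 or of Alb-WT replicates 1, 3 and 4 was left out (adjusted p = 0.0569 to 0.0648). Sds lost it without Alb-Cre replicate 1 or 2 or Alb-WT replicate 2, 3 or 4 (adjusted p = 0.0526 to 0.081).

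Of the rest of the 12, Hal, the first enzyme of histidine breakdown, had a log2 fold change of -0.22, Gls2, the liver glutaminase, -0.07, Prodh, proline dehydrogenase, -0.02, Gpt and Gpt2, the cytosolic and mitochondrial alanine aminotransferases, 0.30 and 0.02, and Agxt, alanine-glyoxylate aminotransferase, -0.26. None of these 6 passed with all libraries. Without Alb-Cre replicate 4, Gpt and Prodh were called higher (0.44 and 0.18, limma adjusted p = 9.37e-05 and 0.00944). Agxt was called lower without that library (-0.17, limma adjusted p = 0.0144). Of 16 further genes of lysine, proline, serine and glyoxylate metabolism 3 were called higher and 3 lower. Hao1, the peroxisomal glycolate oxidase, rose by 0.32, and Grhpr, glyoxylate reductase, rose by 0.42 (limma log2 fold changes, adjusted p = 0.0067 and 0.0073). Psph, the last step of serine synthesis, rose by 0.34 (adjusted p = 0.0249). Dhtkd1, of the later lysine route, fell by 0.53, Aasdh fell by 0.31, and Asns, asparagine synthetase, fell by 1.16 (adjusted p = 0.00101, 0.0223 and 0.0362). Asns was 1.49 to 1.57 FPKM in Alb-Cre replicates 1 to 3 and 7.14 FPKM in replicate 4, against 6.07 to 6.90 FPKM in Alb-WT, so replicate 4 was above every Alb-WT library, and without it the log2 fold change of Asns was -1.58 (limma adjusted p = 1.71e-08).

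**Figure D3:**
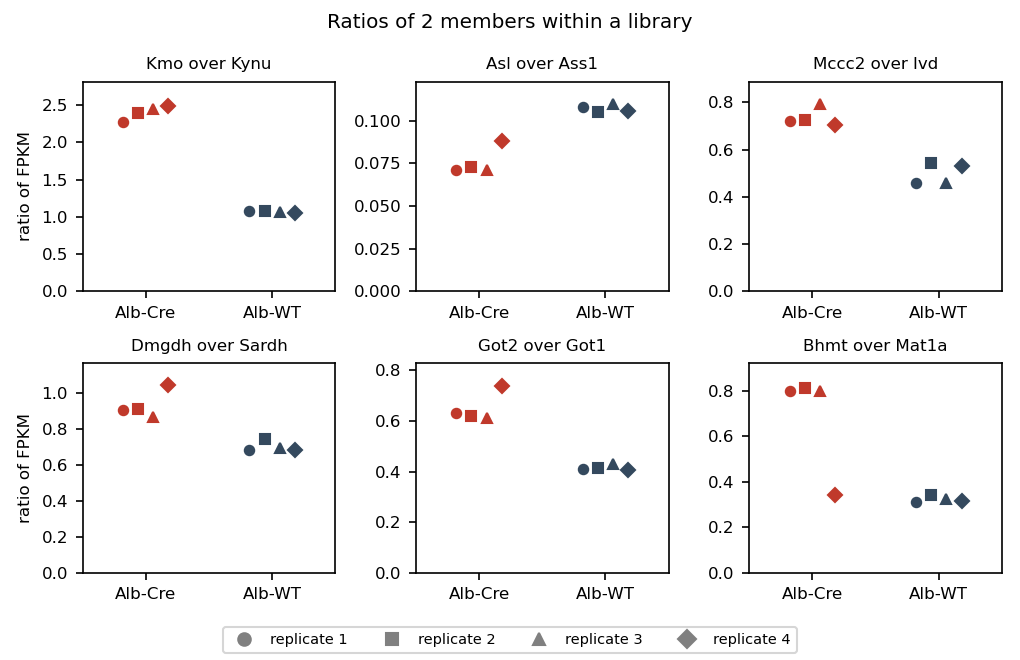
FPKM of a gene divided by that of a partner in the same library, for 6 pairs, Alb-Cre left and Alb-WT right, with every axis starting at 0. The 6 pairs were taken from those whose groups did not overlap. For Bhmt over Mat1a Alb-Cre replicate 4 lies at 0.344, next to the Alb-WT range of 0.313 to 0.341.

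A ratio of 2 genes within a library is unaffected by a single scaling factor per library, though not by quantile normalization or a length correction. Ratios were taken for 14 pairs of neighbouring steps or subunits, chosen after the levels had been seen and therefore given without a test. The groups were apart for 7 pairs. Besides those of Kmo to Kynu, Asl to Ass1 and Got2 to Got1, these were Mccc2 to Ivd, at 0.703 to 0.791 in Alb-Cre, against 0.457 to 0.543 in Alb-WT, and Dmgdh to Sardh, at 0.869 to 1.04 in Alb-Cre, against 0.683 to 0.748 in Alb-WT. Amt to Gldc was 0.719 to 0.946 in Alb-Cre, against 0.581 to 0.679 in Alb-WT. Bhmt to Mat1a was 0.798, 0.813, 0.799 and 0.344 in Alb-Cre replicates 1 to 4 and 0.313 to 0.341 in Alb-WT. In the pairs Kmo to Kynu, Mccc2 to Ivd and Got2 to Got1 both genes were already apart, in opposite directions. The ratios of those pairs therefore had to be apart. The groups overlapped for the other 7 pairs, such as Hpd to Tat, at 0.372 to 0.623 in Alb-Cre, against 0.551 to 0.602 in Alb-WT, and Dmgdh to Bhmt, at 0.166 to 0.245 in Alb-Cre, against 0.180 to 0.197 in Alb-WT.

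Alb-Cre replicate 4 was below replicates 1 to 3 for 34 of the 45 members, above them for 7 and within them for 4. The median deviation of the members from the Alb-WT mean was 0.02 for the mean of Alb-Cre replicates 1 to 3 and -0.17 for replicate 4 on the log2 scale. For 9 members all 4 Alb-Cre libraries were above the Alb-WT range, and for 15 all 4 were below it. For 6 members, Otc, Haao, Gpt, Gpt2, Gls2 and Prodh, replicates 1 to 3 were above the Alb-WT range and replicate 4 below it. For Mat1a and Bckdhb replicates 1 to 3 were below that range and replicate 4 within it. Without Alb-Cre replicate 4, 15 members were called higher and 16 lower, where 15.2% and 46.1% of all tested genes were called in these directions. All 19 calls made with all libraries were among them, with 8 added higher and 4 added lower.

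**Figure D4:**
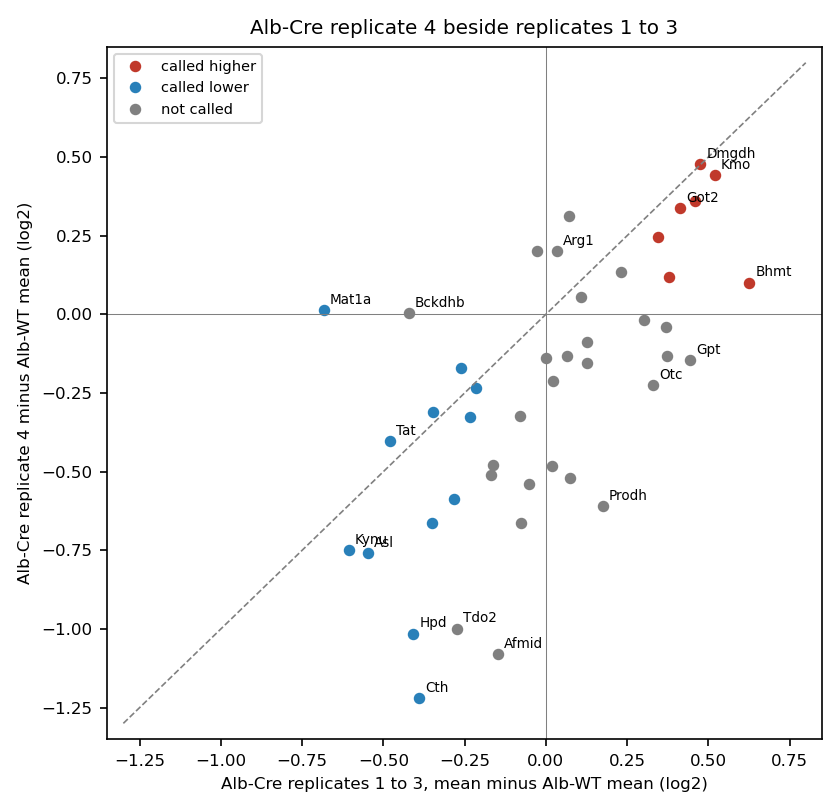
Each point is a member; the horizontal axis gives the mean of Alb-Cre replicates 1 to 3 and the vertical axis Alb-Cre replicate 4, both minus the Alb-WT mean on the log2(FPKM + 1) scale, with equality dashed. Most points lie under the dashed line, Dmgdh, Kmo and Tat lie near it, and Mat1a and Bckdhb lie at 0 on the vertical axis.

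The balance of higher and lower members depended on how libraries were scaled. With the FPKM as deposited 7 were higher and 12 lower. With a common FPKM sum the counts were 7 and 17, with quantile normalization 8 and 15, with a correction for gene length 9 and 6, and with median-of-ratios scaling 11 and 2. The median log2 fold change of all tested genes was -0.13 as deposited, -0.19 with a common sum, 0.02 with quantile normalization, with the length correction and with median-of-ratios scaling. The members' median minus that of all genes was 0.09 as deposited, 0.06 with a common sum, 0.07 with the length correction, 0.14 with median-of-ratios scaling and -0.14 with quantile normalization. Among genes of at least 5 FPKM it was -0.02, so its sign depended on these choices. Under median-of-ratios scaling Asl and Kynu were the members called lower. The other 10 lower members kept their sign and missed the threshold. No called member changed sign under any of these scalings. Asl, Kynu, Kmo, Dmgdh, Got2 and Aass were called under all 18 alternatives tried.

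**Figure D5:**
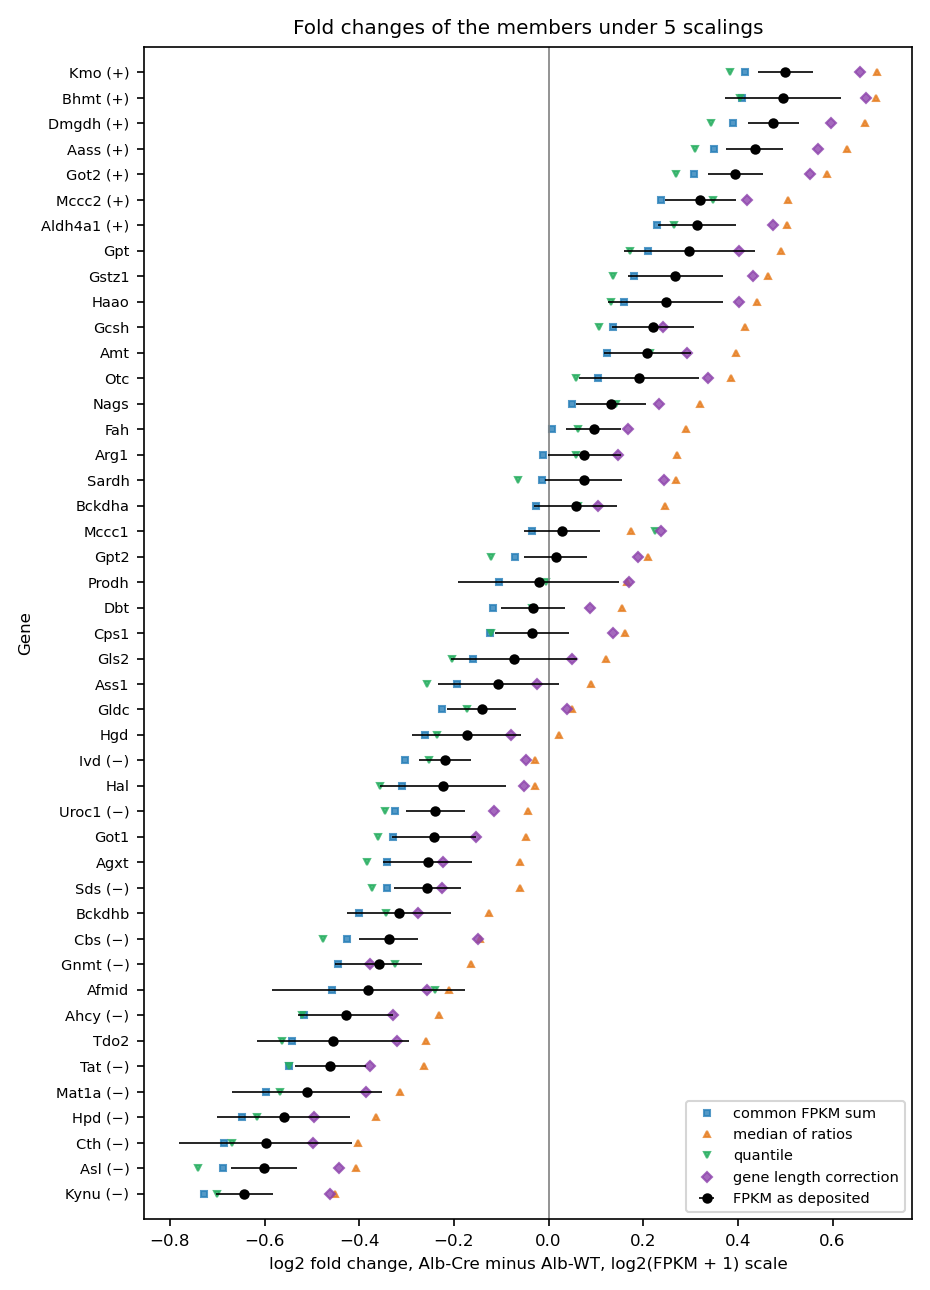
Log2 fold change of each member, Alb-Cre minus Alb-WT, with the FPKM as deposited (black, bar 1 SE) and under 4 other scalings, ordered by the deposited values. Median of ratios moves the members upwards and the common FPKM sum moves them downwards, quantile normalization and the length correction move them by unequal amounts, and genes near 0 such as Cps1 and Gpt2 cross it.

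Regulators and zonation landmarks were measured in the same libraries. Of 16 regulators of these pathways 2 were called higher and 5 lower. Foxa2 and Cebpa, liver transcription factors, rose by 0.42 and 0.43 (limma log2 fold changes, adjusted p = 0.0196 and 0.0337). Cebpa was 140 to 147 FPKM in Alb-Cre replicates 1 to 3 and 98.8 FPKM in replicate 4, against 90.8 to 106 FPKM in Alb-WT. Ppargc1a, a coactivator of the fasting response, fell by 0.70, Ppara, a lipid-sensing nuclear receptor, fell by 0.39, and Creb1, a target of glucagon signalling, fell by 0.28 (adjusted p = 0.000494, 0.0055 and 0.0152). Of 13 periportal landmark genes 2 were called higher and 5 lower, and of 13 pericentral ones 1 higher and 4 lower. Hsd17b6 and Ctsc fell by 1.56 and 1.02, and Apoa4 and Igf1 rose by 2.57 and 0.42, among the periportal genes (limma log2 fold changes, adjusted p = 0.000148, 0.0108, 7.94e-06 and 0.0101). Ctsc was 17.5 to 19.5 FPKM in Alb-Cre replicates 1 to 3 and 38.0 FPKM in replicate 4, against 44.1 to 47.5 FPKM in Alb-WT. The part of the macrophage marker shifts in this fall was not tested. Pck1, the periportal enzyme that commits amino acid carbon to glucose, averaged 873 ± 64.1 FPKM in Alb-Cre and 1540 ± 45.3 FPKM in Alb-WT (SD, n = 4 each; log2 fold change -0.82, limma adjusted p = 0.00045). Among the pericentral genes Gstm3 rose by 1.47, and Cyp2e1, a cytochrome P450, and Slco1b2, an organic anion transporter, fell by 0.37 and 0.51 (limma log2 fold changes, adjusted p = 0.00218, 0.014 and 0.031). Of the 41 genes that the naming rule took from the further lists 24 were called under all 4 other scalings. Whichever library was left out, 27 of the 41 were called. Among the other 14, the calls of Aasdh, Asns, Cebpa, Foxa2, Gch1, Hibch, Ido2, Oat, Pcbd1, Psph, Sirt3, Slc25a44 and Slco1b2 were lost in at least 1 of 8 such fits, with adjusted p up to 0.111 without Alb-Cre replicate 1, 2 or 3 or an Alb-WT library.

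Exons of 12 members were overlapped by another gene of GENCODE M21, a mouse gene annotation, on the opposite strand for 11. The strand setting of the counting is not given in the sources used here. The called members among these 12 were Aldh4a1, Bhmt, Dmgdh, Got2 and Sds, whose levels are uncertain to that extent.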

How the data were processed

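RNA sequencing libraries of mouse liver, treated as bulk, were grouped by the genotype in their titles. The authors deposited a table of FPKM, which was used as it stood. HISAT2 2.0.5 was used per the submitters' processing notes, which list mouse and human builds without a role. For the annotation, the counting tool and the strand setting, the sources used here give nothing. Steps between values gave whole fragments for 100% of rows (tolerance 1e-06 fragment), and members had 300 to 146520 fragments per library. The gene lengths behind these fragments equalled merged exon lengths of GENCODE M21 for 12702 rows. The annotation behind the FPKM was not settled.

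The 11077 rows that averaged 0.5 FPKM or more entered limma 3.58.1 (R 4.3.3) on the log2(FPKM + 1) scale, with an intensity trend and genotype as the only term. Calls were made at a Benjamini-Hochberg adjusted p under 0.05. Fold changes on that scale understate changes of low genes. Libraries were simulated for this comparison over 11077 genes with a fixed spread (dispersion 0.02) and no outlying library. Of 67 genes changed 1.5-fold 49.3% were called in the right direction, and of 67 changed 2-fold 100%, with 18 false calls. Alb-Cre replicate 4 stood apart in the data, so these rates may not hold for it.

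All 45 members are named. Per-library values were given for up to 4 called members of each pathway with the smallest p and for its most abundant member, and up to 3 called genes per direction were named in related lists, of which some are not reported here. Other genes with values, such as Otc and Tdo2, were chosen after their values were seen. The members and lists were chosen with earlier results of these data known. Alternatives covered the pseudocount (0.1), filters on low values (none, and 5 FPKM), scaling, gene length, voom on recovered fragments, a replicate block and each library left out. Python 3.11.15 was used for the rest.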

Additional observations from a re-analysis of the deposited data

Results flagged for a closer look

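In 92 groups of 4 libraries, a library was marked where its gap to the nearest other, divided by the group's range, was above Dixon's critical value for 4 values, which chance exceeds in about 1 of 20 groups. All 10 groups marked were Alb-Cre groups, and Alb-Cre replicate 4 was the library that stood apart in each. It was the lowest of its group for Cps1 (483 FPKM), Hpd (370 FPKM), Hgd (140 FPKM), Gstz1 (82.2 FPKM), Tdo2 (270 FPKM), Gldc (23.5 FPKM), Bhmt (371 FPKM), Gls2 (59.8 FPKM) and Prodh (9.82 FPKM). It was the highest for Mat1a (1079 FPKM). Kupffer cell markers summed to 780 FPKM in that library, to between 266 and 276 FPKM in Alb-Cre replicates 1 to 3, and to between 809 and 860 FPKM in Alb-WT, and the part of this in the values above was not tested.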

How the results depend on the processing

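Over 809 values of single members under 18 alternatives, 677 kept their direction and side of the threshold, 74 lost a call, 30 gained one and 28 changed sign, none of these in a called member. The 7 higher members became 11 with median-of-ratios scaling and 4 to 15 with a library left out. The 12 lower members became 2 with median-of-ratios scaling, 6 with a correction for gene length, 6 with the replicate block and 4 to 16 with a library left out, the highest counts being those without Alb-Cre replicate 4. The cause was not tested. With the replicate block 5 members were higher. Same-numbered libraries of the 2 groups deviated with correlations of -0.065, -0.054, -0.097 and 0.013, and not every library correlated best with its own number, so the numbers were not taken as pairs.

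Members that changed sign had small fold changes with all libraries, though Prodh was called higher without Alb-Cre replicate 4. With median-of-ratios scaling log2 fold changes were 0.161 for Cps1, 0.090 for Ass1, 0.022 for Hgd, 0.155 for Dbt, 0.050 for Gldc, 0.121 for Gls2 and 0.166 for Prodh. With the length correction they were 0.137 for Cps1, 0.087 for Dbt, 0.039 for Gldc, 0.050 for Gls2 and 0.169 for Prodh. With a common FPKM sum they were -0.012 for Arg1, -0.027 for Bckdha, -0.035 for Mccc1, -0.013 for Sardh and -0.071 for Gpt2, and with quantile normalization -0.064 for Sardh and -0.121 for Gpt2. With a library left out they spanned -0.059 to 0.023 for Cps1, -0.169 to 0.019 for Ass1, -0.011 to 0.127 for Bckdha, -0.066 to 0.002 for Dbt, -0.028 to 0.064 for Mccc1, -0.127 to 0.076 for Gls2, -0.091 to 0.176 for Prodh and -0.011 to 0.065 for Gpt2. Outside the members, Gch1 changed sign with median-of-ratios scaling (0.013) and with the length correction (0.008). Each member held 300 or more fragments in every library. In the simulated data, which held no outlying library, 49.3% of 1.5-fold changes were called, and that rate may not hold here.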
